A study of Homo sapiens with 6 samples.

Results

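The genes described here are the protein-coding genes at the start of chromosome 20 in lines of CAL27, an established human cell line from an oral carcinoma, adenosquamous by its label. A gene was taken where its GENCODE start on the build GRCh38 lies below 33 Mb on chromosome 20 and its mean over the 6 libraries is at least 1 FPKM, the number of reads scaled to gene length and to the library total. Of 165 such protein-coding genes in the table, 52 lay under that level, and 13 of the other 113 were left out by name because they belong to other gene groups. The remaining 100 genes are the members, out of 11481 genes tested and 30178 in the table. The region was chosen by the lower FPKM of its genes in the Q311E libraries, so both comparisons of that line are given as a description and carry no test of the members.

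The working name of the group, genes of the short arm of chromosome 20 lower in the Q311E line, held for most of the members but not for all. Between the start of NANP and the start of HM13 lies the widest distance between neighbouring tested protein-coding genes of the chromosome, 5.90 Mb, against 2.49 Mb for the next widest. By textbook knowledge that gap holds the centromere. On its short-arm side lie 89 members, and 11 members, HM13 to MAPRE1, lie on its long-arm side and are not genes of the short arm.

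The Q311E libraries come from a stable line with a GFP fusion of MB21D2 that carries the Q311E substitution, a glutamate in place of a glutamine. The wild-type libraries come from a line with the GFP fusion of unaltered MB21D2, and the vector libraries from a line with an empty vector. There are 2 libraries, A and B, for each line, and all lines were kept in DMEM with serum, antibiotics and the selection drug G418. Nothing in the labels tells whether a line is 1 clone, or whether its libraries were grown apart. The p-values therefore cover the spread between libraries alone, and that spread may be technical.

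A chromosome arm runs from the chromosome's end to its centromere, and its genes are tied by position, not by a shared task. The short arm of chromosome 20 carries genes of splicing, RNA export, mitochondrial lipids, antiviral signalling and cell adhesion next to each other. Carcinoma cell lines often differ from each other in whole arms, and an RNA library measures the transcripts of an arm but not its DNA, which was not analysed here. In bulk RNA, fewer cells with a transcript and less transcript per cell cannot be told apart.

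Depth ran from 20645410 reads for vector B up to 24147306 for vector A. MB21D2 had 32.8 and 21.2 FPKM in the Q311E libraries, 104 and 106 FPKM in the wild-type libraries and 8.31 and 7.15 FPKM in the vector libraries, so the level of the introduced gene differs together with its form. Of 10 epithelial markers, 9 averaged at least 1 FPKM, and the exception was KRT19. Of the 3 leukocyte markers with values here, PTPRC and CD3E were under 0.1 FPKM in their means. LYZ, also planned as a leukocyte marker, has no values here. CD14, which is not limited to leukocytes, had 4.93 and 18.8 FPKM in the Q311E libraries. It had 2.39 and 2.56 FPKM in the wild-type libraries and 1.78 and 3.17 FPKM in the vector libraries. The sum over the 3 endothelial markers was 22.7 to 35.6 FPKM in Q311E, 15.5 to 15.9 FPKM in wild type and 20.1 to 21.5 FPKM in vector, nearly all of it CDH5, with PECAM1 and VWF near 0. The sum over the 4 fibroblast markers was 2.83 to 3.41 FPKM in Q311E, 2.39 to 2.41 FPKM in wild type and 2.87 to 3.33 FPKM in vector. The part of these markers in the results was not tested. KRT14, a basal keratin, had 0.771 and 0.902 FPKM in the Q311E libraries and 2.08 and 2.35 FPKM in the wild-type libraries, against 762 and 697 FPKM in the vector libraries. The Q311E libraries also differed more from each other than the others did: over all genes tested, the interquartile range of the log2(FPKM + 1) difference between A and B was 0.452 for Q311E, 0.118 for wild type and 0.183 for vector. The medians and the break against vector are therefore also given below for each Q311E library alone.

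In the Q311E line the short-arm members were lower as a group than in the vector line. Their median difference on the log2(FPKM + 1) scale was -0.53, which corresponds to a median ratio of 0.663 (quartiles 0.587 and 0.76), while the median over all genes tested was 0.00. The difference was below 0 for 85 of the 89, and in 77 of the 89 both Q311E libraries lay below both vector libraries. Over all genes tested, 30% were separated in that direction. With the call rule, limma on log2(FPKM + 1) with a Benjamini-Hochberg adjusted p under 0.05 over all genes, 54 of the 89 were called lower and 0 higher, where 9.28% of all genes were called lower and 8.67% higher. At an unadjusted p under 0.05 the same fit had 68 lower and 1 higher. Limma-voom on recovered reads called 56 lower and 0 higher, where it called 9.17% of all genes lower. These counts restate how the genes were chosen and nothing is read from them. They also rest on single libraries: the count of members called lower was 0 without vector A or vector B and 9 without either wild-type library, where the same rule called 0.0174% and 1.09% of all genes lower.

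The 11 long-arm members had a median difference of 0.13 against vector, a median ratio of 1.11. None of the 11 was called in either direction by limma or by limma-voom on recovered reads, with 0 lower and 3 higher at an unadjusted p under 0.05 in limma, and in 4 of them both Q311E libraries lay above both vector libraries, as they did in 30.1% of all genes tested. The other 178 tested protein-coding genes of the chromosome start beyond 33 Mb and had a median difference of 0.02. Of these, 12 (6.74%) were called lower and 19 (10.7%) higher, near the 9.28% and 8.67% of all genes tested.

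**Figure D1:**
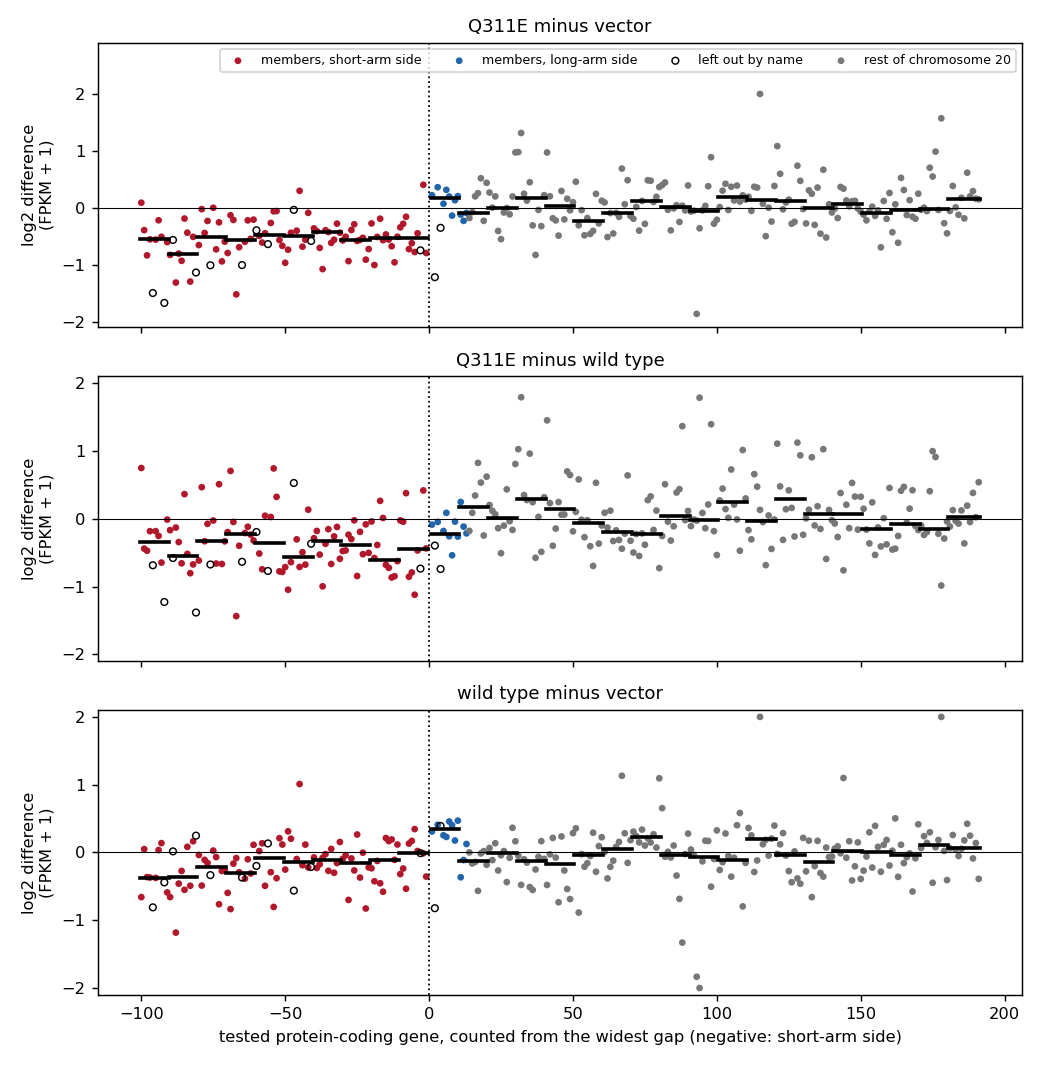
Log2(FPKM + 1) difference of each tested protein-coding gene of chromosome 20 (vertical axis) by its place in gene order counted from the widest gap (horizontal axis, dotted line at the gap, short-arm side to the left), for the 3 comparisons of group means; points past 2 are drawn at 2. Black bars are medians over runs of 10 genes, all below 0 on the short-arm side and between -0.23 and 0.18 on the long-arm side for Q311E minus vector.

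The shift covered the whole arm. Cut into 10 runs of 10 consecutive genes, with the genes left out by name put back, the short-arm side had run medians for Q311E against vector from -0.82 to -0.43, every one below 0. The lowest run reached from FAM110A, a spindle-associated protein, to NOP56, and the highest from BTBD3 to SNX5, a sorting nexin of endosomes. In ratios the runs lay between 0.56 and 0.715. The run nearest the chromosome's end, C20orf96 to SLC52A3, stood at -0.56, and the run nearest the gap, NAPB to NANP, at -0.53. The 19 runs of the long-arm side lay between -0.23 and 0.18, with 9 of them below 0, and the first of these, HM13 to ASXL1, stood at 0.17.

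The size of the difference varied somewhat less among the short-arm members than among other genes, by a small margin except in the SD. Of the 89 short-arm members, 60 had a ratio of Q311E to vector between 0.5 and 0.8, 8 had a ratio under 0.5 and 21 had one above 0.8. A difference within 0.25 log2 units of the group's own median was seen for 53 of them (59.6%), against 55.6% of the genes beyond 33 Mb and 54.9% of all protein-coding genes tested around their own medians. The interquartile range was 0.40 for the short-arm members, 0.47 for the genes beyond 33 Mb and 0.44 for all protein-coding genes. The SD of the differences was 0.32 for the short-arm members, against 0.44 for the genes beyond 33 Mb and 0.45 for all protein-coding genes.

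Against vector the median ratio differed little between classes of level. Cut at 4.65 and 18.2 FPKM, the limits that split the short-arm members into 3 classes by mean level, the short-arm members had median ratios of 0.694 in the low class (n = 30), 0.663 in the middle (n = 29) and 0.649 in the high class (n = 30). Over all protein-coding genes the same level classes had median ratios of 1.08, 0.995 and 0.92, so in every class the short-arm members were lower and the order of the classes was the same. Low genes that do not count as members were near the vector level, but also under the median ratio of other genes of their level. Among the short-arm protein-coding genes with a mean from 0.1 to under 1 FPKM, 8 of 19 had a lower mean in Q311E than in vector and 11 a higher one, and the median ratio of the 16 with vector reads was 1.01. In the same range the median ratio was 1.34 for the genes beyond 33 Mb and 1.33 for all protein-coding genes. These low values rest on few reads, since 1 FPKM of a gene of 1 kilobase is between 20.65 and 24.15 reads in these libraries.

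**Figure D2:**
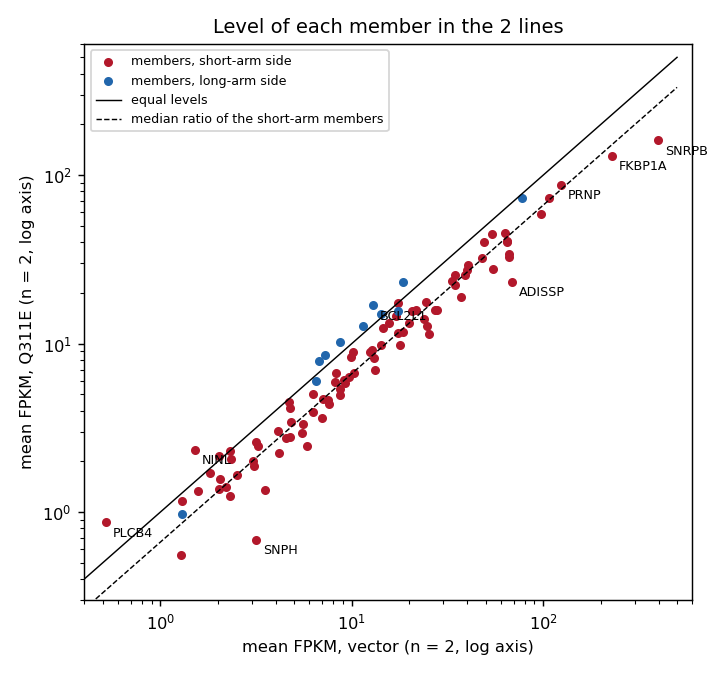
Mean FPKM of the 100 members in the Q311E line (vertical axis) and the vector line (horizontal axis), n = 2 libraries each, both axes logarithmic, with lines for equal levels and for the median short-arm ratio of 0.663. Short-arm members lie along the dashed line at low and high levels. SNPH, ADISSP and SNRPB lie under it, and NINL and PLCB4 lie above the line of equal levels. SNPH passed the level filter through the vector line and PLCB4 through the wild-type line.

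The largest differences from the vector line were those of ADISSP, SNPH and SNRPB. ADISSP, an adipose-secreted signalling protein whose start is at 3.75 Mb, had 23.2 and 23.3 FPKM in the Q311E libraries, 64.7 and 64.4 in the wild-type libraries and 70.2 and 66.7 in the vector libraries, a log2 difference of -1.52 from vector. The Q311E values lay far under the other 4, which were close to each other. SNRPB, which encodes a core protein of the spliceosome and was the member with the highest mean level, had 157 and 164 FPKM in Q311E, 281 and 281 in wild type and 405 and 387 in vector (-1.30 from vector), so here the wild-type line stood between the others. SNPH, known for anchoring mitochondria in axons, had 0.848 and 0.518 FPKM in Q311E and 0.845 and 0.821 in wild type, against 3.10 and 3.22 in vector (-1.31). In this gene the Q311E and wild-type lines did not separate. SNPH passed the level filter through the vector line, since its mean is under 1 FPKM in both of the others. Such a filter favours genes that are high in vector, so nothing is read from the size of its fall.

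Next in size came 5 genes with differences from -1.08 to -0.94. ESF1, a nucleolar factor of ribosomal RNA processing, had 12.8 and 10.1 FPKM in Q311E, against 27.3 and 23.1 in vector. CRLS1, the cardiolipin synthase of mitochondria, had 2.48 and 2.47 FPKM in Q311E and 6.26 and 5.34 in vector. NXT1, a cofactor of messenger RNA export, had 27.7 and 27.6 FPKM in Q311E, against 54.0 and 55.1 in vector. NAA20, the catalytic subunit of an N-terminal acetyltransferase, and DDRGK1, an adaptor of UFM1 conjugation at the endoplasmic reticulum, stood at ratios of 0.491 and 0.515. In all 5 genes both Q311E libraries lay below all 4 others.

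On the log2(FPKM + 1) scale 4 short-arm members were not below 0 in Q311E against vector. NINL, a centrosomal protein, had 2.09 and 2.58 FPKM in Q311E, 1.35 and 1.63 in wild type and 1.55 and 1.48 in vector (0.40 against vector). PLCB4, a phospholipase C, had 0.988 and 0.751 FPKM in Q311E and 1.96 and 2.15 in wild type, against 0.558 and 0.477 in vector (0.30). It passed the level filter through the wild-type line, since its mean is under 1 FPKM in both of the others. C20orf96 (0.09) and the ubiquitin ligase UBOX5 (0.00) overlapped between the Q311E and vector lines. C20orf96 had 0.735 and 1.03 FPKM in wild type, below every library of the other lines. The 4 members with a Q311E mean under 1 FPKM were SNPH, PLCB4, FOXA2 and DNMT3B, and the 6 with a wild-type mean under 1 were C20orf96, SNPH, LZTS3, DNAAF9, SLX4IP and CST5.

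Arranged by task, every group of short-arm members had a median below 0 in Q311E against vector. The lists were drawn up with the results known, so their counts, beside 9.28% of all genes tested called lower, only describe the members. The 10 genes of RNA synthesis and processing were below 0 without exception, with a median of -0.67 and 10 called lower. Beside SNRPB and NXT1 they include SNRPB2, a protein of the U2 particle of the spliceosome, with 23.2 and 21.3 FPKM in Q311E, against 34.9 and 34.1 in vector. XRN2, the exonuclease of transcription termination, had 48.3 and 42.9 FPKM in Q311E, against 65.2 and 61.4 in vector. POLR3F, a subunit of RNA polymerase III, and TRMT6, a subunit of a tRNA methyltransferase, stood at ratios of 0.632 and 0.664.

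The 15 genes of mitochondria and metabolism were all below 0, with a median of -0.60 and 10 called lower. IDH3B, a subunit of an isocitrate dehydrogenase of the citric acid cycle, had 39.6 and 42.0 FPKM in Q311E and 63.6 and 66.0 in vector. ITPA, which clears non-canonical purine nucleotides, had 24.3 and 26.7 FPKM in Q311E, against 38.7 and 39.3 in vector. In both genes the lines were clearly apart. PYGB, a glycogen phosphorylase, had 20.02 and 11.8 FPKM in Q311E and 27.2 and 26.9 in vector, and ABHD12, a lipid hydrolase, had 31.2 and 20.1 FPKM in Q311E and 35.4 and 33.6 in vector. These last 2 genes were lower in both Q311E libraries but by unequal amounts.

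The 9 genes of chromosomes, DNA and the spindle had a median of -0.43, with 8 below 0 and 5 called lower. CENPB, which binds centromeric repeats, had 41.2 and 38.5 FPKM in Q311E and 64.3 and 65.6 in vector. MGME1, an exonuclease of mitochondrial DNA, had 25.4 and 21.4 FPKM in Q311E, against 33.7 and 33.4 in vector. MCM8, a helicase of recombination, stood at a ratio of 0.541. NINL was the single member of this list above 0.

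All 12 genes of membrane traffic and the endoplasmic reticulum were below 0, with a median of -0.42 and 5 called lower. NSFL1C, a cofactor of the ATPase p97, had 20.1 and 17.9 FPKM in Q311E and 36.6 and 37.5 in vector. SEC23B, a coat protein of transport vesicles, had 29.5 and 25.4 FPKM in Q311E, against 39.7 and 40.1 in vector. RRBP1, a ribosome-binding protein of the endoplasmic reticulum, was closer to the vector level, with 42.6 and 37.9 FPKM in Q311E and 49.5 and 48.3 in vector.

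The 13 genes of innate immunity, ubiquitin and signalling had a median of -0.39, with 11 below 0 and 7 called lower. FKBP1A, the binding protein of rapamycin and tacrolimus, had 127 and 133 FPKM in Q311E, 172 and 159 in wild type and 229.6 and 227 in vector. RBCK1, a subunit of the linear ubiquitin ligase, had 33.2 and 31.2 FPKM in Q311E and 47.3 and 48.5 in vector. ZCCHC3, a cofactor of cGAS, the DNA sensor of the family to which MB21D2 belongs, had 15.6 and 15.5 FPKM in Q311E, against 21.1 and 20.3 in vector. MAVS, the mitochondrial adaptor of RNA sensing, had 12.5 and 16.6 FPKM in Q311E and 17.2 and 16.7 in vector, so 1 Q311E library reached almost to the vector level.

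The 8 genes of adhesion, the cytoskeleton and the epithelium were all below 0, with a median of -0.57 and 5 called lower. PRNP, the prion protein, had 94.2 and 81.3 FPKM in Q311E and 127 and 120.0 in vector. DSTN, the actin-severing protein destrin, had 75.1 and 70.2 FPKM in Q311E, against 104 and 112 in vector. FERMT1, the integrin activator kindlin-1, had 16.5 and 18.8 FPKM in Q311E, 28.8 and 27.2 in wild type and 26.9 and 21.8 in vector. The 5 transcription factors had a median of -0.51 and were all below 0, 3 of them called lower. Among them SOX12 had 5.86 and 8.16 FPKM in Q311E and 12.9 and 13.4 in vector. The 17 short-arm members in none of these lists had a median of -0.56, with 16 below 0 and 9 called lower. The high-level gene APMAP, a membrane protein of adipocytes, was one of them, with 60.7 and 56.1 FPKM in Q311E and 97.8 and 96.5 in vector.

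**Figure D3:**
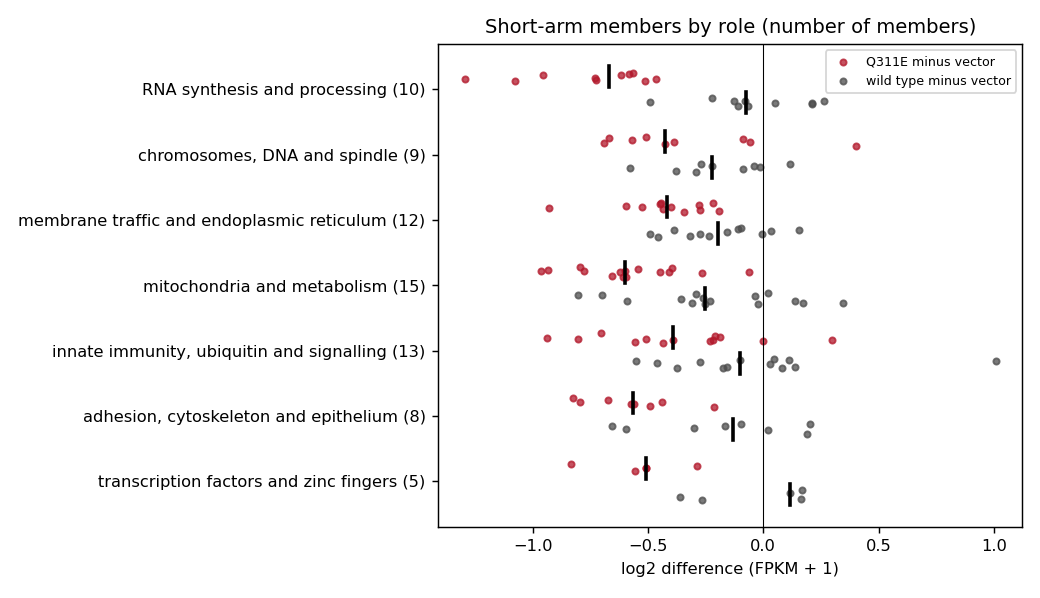
Log2(FPKM + 1) differences of the short-arm members that are in a role list, by role (number of members in brackets), with Q311E minus vector above and wild type minus vector below in each line and black bars at the medians. The Q311E medians run from -0.67 to -0.39, while the wild-type medians lie between -0.25 and 0.12.

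The genes left out by name did not differ in direction. All 11 of them on the short-arm side were below 0 in Q311E against vector, with a median of -0.75. Of these, 9 were called lower, where 9.28% of all genes tested were. SRXN1, a peroxide-responsive reductase, had 4.32 and 3.38 FPKM in Q311E and 16.3 and 12.6 in vector, and TRIB3, a stress-induced pseudokinase, had 19.9 and 13.6 FPKM in Q311E and 52.1 and 44.8 in vector. BMP2 was the closest to 0, at -0.04. The 6 tested genes of the short-arm side that are not protein-coding were all below 0, with a median of -0.36. The 2 genes left out on the long-arm side were ID1, with 5.37 and 59.0 FPKM in the Q311E libraries and 41.4 and 47.8 in the vector libraries, and TPX2, with 82.3 and 50.6 FPKM in Q311E and 84.8 and 80.5 in vector. Neither kept its 2 Q311E libraries apart from the vector libraries.

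Where the shift ends was sought with a single break in gene order that leaves the smallest sum of absolute deviations from the medians on its sides, over the 291 tested protein-coding genes of the chromosome. For Q311E against vector the break fell after GINS1, at 25.4 Mb, and before NINL, with a median of -0.56 before it and 0.03 after it. The same break came out for Q311E A and for Q311E B alone, against the vector mean and against 1 vector library each. The last genes before the gap show why the position is only known to within a few genes. ABHD12 and GINS1 were lower, NINL was higher, and NANP, a phosphatase of sialic acid synthesis, was again lower, with 3.87 and 3.34 FPKM in Q311E, 5.72 and 4.77 in wild type and 6.85 and 7.09 in vector. With a filter at a mean of 5 FPKM the break fell after NANP, at 25.6 Mb, and with least squares after ID1, at 31.6 Mb on the far side of the gap. At most 2 tested protein-coding genes lie between any of these breaks and the gap.

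Past the gap, HM13, a protease that cleaves signal peptides, had 10.5 and 10.1 FPKM in Q311E and 11.0 and 10.9 in wild type, against 8.67 and 8.67 in vector. BCL2L1, the anti-apoptotic BCL-X, had 19.0 and 14.8 FPKM in Q311E, 17.8 and 16.9 in wild type and 13.3 and 12.3 in vector. TM9SF4, a membrane protein of the Golgi and endosomes, had 21.5 and 25.1 FPKM in Q311E and 18.9 and 18.0 in vector. In these 3 genes both Q311E libraries lay above both vector libraries. Between NANP and HM13 there are 2 tested pseudogenes, whose reads may come from related genes. ENSG00000204556, at 26.0 Mb, had 3.59 and 4.32 FPKM in Q311E and 9.27 and 9.61 in vector, and FRG1BP, at 30.4 Mb, had 15.6 and 14.5 FPKM in Q311E and 10.3 and 10.5 in vector.

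Values given here from just inside and just outside the limit of 33 Mb were small. The last 3 members before it were COMMD7 (-0.12), the DNA methyltransferase DNMT3B (-0.23) and MAPRE1, the microtubule-end protein EB1 (-0.09). Among the nearest genes after it were CDK5RAP1 (-0.18) and CBFA2T2 (0.20). At the level filter, the lowest members were DNMT3B at a mean of 1.13 FPKM, SLX4IP at 1.14 and FOXA2 at 1.14. The highest genes under the filter were FLRT3 at 0.748, NOL4L at 0.604 and ACSS1 at 0.513.

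The promoters of genes at the end of the shift and of SNRPB, the member with the highest level, are printed here as the 250 bases before the start of the gene, 5′ to 3′ on the gene's own strand, from RefSeq on GRCh38.p14. NINL, NANP and BCL2L1 are shown because they lie on either side of the break or the gap. Capitals mark matches, on either strand, of 4 searched motifs, which do not contain each other: the GC box GGGCGG, the CCAAT box CCAAT, the TATA box TATAAA and an ETS site CCGGAAGT. SNRPB lies at chr20:2470790-2471039, NINL at chr20:25585532-25585781, NANP at chr20:25624015-25624264 and BCL2L1 at chr20:31723964-31724213, all on the minus strand.
SNRPB: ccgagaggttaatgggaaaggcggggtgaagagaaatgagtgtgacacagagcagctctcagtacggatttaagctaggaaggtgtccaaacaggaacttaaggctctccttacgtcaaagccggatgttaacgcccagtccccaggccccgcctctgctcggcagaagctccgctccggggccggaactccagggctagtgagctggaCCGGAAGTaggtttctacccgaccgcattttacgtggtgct
NINL: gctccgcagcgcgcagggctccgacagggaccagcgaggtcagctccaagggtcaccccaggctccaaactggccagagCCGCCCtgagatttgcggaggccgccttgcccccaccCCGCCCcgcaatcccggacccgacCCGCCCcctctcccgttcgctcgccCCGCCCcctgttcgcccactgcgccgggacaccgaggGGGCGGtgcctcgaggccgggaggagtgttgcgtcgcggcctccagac
NANP: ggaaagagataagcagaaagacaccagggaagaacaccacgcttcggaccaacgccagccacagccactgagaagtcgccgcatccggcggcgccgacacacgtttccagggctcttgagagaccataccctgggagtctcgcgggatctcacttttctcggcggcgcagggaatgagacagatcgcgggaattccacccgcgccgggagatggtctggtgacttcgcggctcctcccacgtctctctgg
BCL2L1: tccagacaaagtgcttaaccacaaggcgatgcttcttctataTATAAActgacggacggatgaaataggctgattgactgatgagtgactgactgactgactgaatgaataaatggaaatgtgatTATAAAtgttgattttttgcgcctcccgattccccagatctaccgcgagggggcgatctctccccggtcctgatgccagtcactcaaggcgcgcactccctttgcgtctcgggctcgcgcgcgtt
NINL has 5 GC boxes, NANP has none of the 4 motifs, SNRPB has 1 ETS site and BCL2L1 has 2 TATA boxes. A link between these motifs and the direction of a difference was not tested.

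The set of RefSeq promoters used here held a match by gene symbol for 67 of the 89 short-arm members and 10 of the 11 long-arm members. A GC box was in 68.7% of the short-arm promoters and 60% of the long-arm ones, against 42.3% of all 27305 promoters in the table. A CCAAT box was in 32.8% of the short-arm promoters and 33.04% of all. An ETS site was in 7.46% of the short-arm promoters and 3.64% of all. A TATA box was in 0 of the 67, against 11.1% of all. The short-arm promoters had a median of 65.6% G and C, from 36% to 81.6%, against a median of 58% over all promoters. The long-arm promoters had a median of 64%. These are counts of letters in a window, with no test, and the table of all promoters includes genes that are not expressed here.

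Taken 1 library at a time, the shift was present in both Q311E libraries. Against the vector mean the short-arm median was -0.46 in Q311E A, with 85 of 89 below 0, and -0.55 in Q311E B, with 79 of 89 below 0. The long-arm members had medians of 0.21 and 0.07 in the same libraries. With disjoint libraries, Q311E A against vector A and Q311E B against vector B, 81 of 89 (91.0%) were below 0 in both, where 37.5% of all genes tested were. Across these 89 genes the 2 differences had a Pearson r of 0.68 and a Spearman rho of 0.63, given as a description because genes are not independent replicates. Over all genes tested r was 0.69.

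The members that differed most between Q311E A and B were LRRN4, THBD, PYGB, CST5 and ABHD12. LRRN4, a leucine-rich repeat protein, had 6.97 and 2.23 FPKM in Q311E A and B, against 8.14 and 6.82 in vector. THBD, the anticoagulant receptor thrombomodulin, had 7.49 and 3.25 FPKM in Q311E A and B, against 9.61 and 7.67 in vector. For these genes the size of the difference depends on the library. Over the short-arm members the interquartile range of the difference between A and B was 0.31 in Q311E, 0.11 in wild type and 0.14 in vector.

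**Figure D4:**
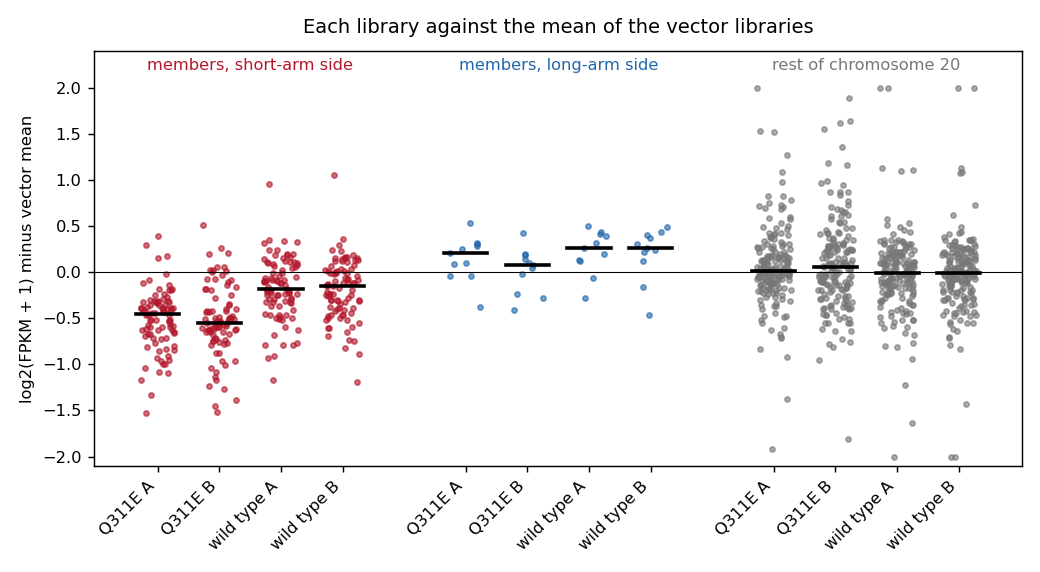
Difference of each Q311E and wild-type library from the mean of the vector libraries on the log2(FPKM + 1) scale (vertical axis) for short-arm members (89), long-arm members (11) and the genes of chromosome 20 beyond 33 Mb (178), with 1 point per gene and black bars at the medians; points past 2 are drawn at 2. The short-arm medians are -0.46 and -0.55 in Q311E and -0.18 and -0.15 in wild type, and the medians of the genes beyond 33 Mb are near 0 in all 4.

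Against the wild-type line the shift was smaller and less even. This comparison uses the same Q311E libraries. The short-arm members had a median of -0.34 and a median ratio of 0.749, against 0.05 for the median of all genes tested, and 75 of the 89 were below 0. In 61 of them both Q311E libraries lay below both wild-type libraries, where 30.8% of all genes did. Limma called 44 lower and 2 higher, where 10.1% of all genes were called lower and 17.5% higher. With quantile normalization the split over all genes turned, to 1644 called lower and 1331 higher, against 1158 lower and 2004 higher as deposited, and 52 of the 100 members were called lower, against 45. Against the wild-type mean the short-arm median was -0.35 in Q311E A, with 76 of 89 below 0, and -0.39 in Q311E B, with 66 of 89 below 0. By level, the median ratios of Q311E to wild type were 0.841 in the low class, 0.776 in the middle and 0.658 in the high class. Over all protein-coding genes they were 1.16, 1.01 and 0.935, so the order of the classes was the same. The fall of the ratio with level is therefore not particular to the members. The numbers called, among members and over all genes tested, changed when a wild-type or vector library was left out. The interquartile range was 0.57, against 0.56 over all genes, and 43.8% lay within 0.25 of their median, against 46.8% of all protein-coding genes.

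Some members lay above 0 in this comparison. DNAAF9, named for the assembly of ciliary dyneins, had 1.94 and 2.17 FPKM in Q311E, 0.939 and 0.807 in wild type and 2.35 and 2.34 in vector. LZTS3, a leucine-zipper protein, had 1.44 and 1.69 FPKM in Q311E, 0.764 and 0.834 in wild type and 2.12 and 1.99 in vector. These were the 2 members called higher in Q311E than in wild type. The 10 RNA genes had a median of -0.73 and were all called lower. The membrane traffic genes had a median of -0.23, with 4 of 12 called lower. Over all genes tested 10.1% were called lower. The lists were drawn up with the results known, so nothing is read from these counts. ADISSP (-1.44), PYGB (-1.12) and LRRN4 (-1.05) had the largest differences.

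Against wild type the break fell after POFUT1, the O-fucosyltransferase of Notch, at 32.2 Mb, with a median of -0.38 before it and -0.01 after it. With Q311E A alone it fell after ID1 at 31.6 Mb, with Q311E B alone it fell later along the long arm, with least squares it fell after ASXL1 at 32.4 Mb, and with the filter at a mean of 5 FPKM after NANP at 25.6 Mb. The long-arm members had a median of -0.12, with 9 of 11 below 0 and POFUT1 called lower. POFUT1 had 16.9 and 14.5 FPKM in Q311E and 23.1 and 23.3 in wild type, with 18.1 and 16.6 in vector. In ratios of the short-arm runs, Q311E stood between 0.642 and 0.827 of wild type.

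Wild type against vector is not the contrast that chose the members, but it shares the vector libraries with the first Q311E comparison and the wild-type libraries with the other, so its tests are not free of that choice. The level filter bears on it too: without the vector libraries the mean of SNPH would be under 1 FPKM, and without the wild-type libraries those of PLCB4 and FOXA2 would. These 3 genes are given with no test. The short-arm members had a median of -0.17, against -0.05 for all genes tested and -0.02 for the genes beyond 33 Mb, and 63 of 89 were below 0. Limma called 11 of the 100 members lower and 3 higher, where 8.76% and 3.54% of all genes were called, so the share of calls was near that of all genes. Among the 97 members other than those 3, 10 were called lower and 2 higher. The split moved with the scaling, to 5 lower and 1 higher with TPM scaling, 8 and 5 with median scaling and 5 and 5 with quantile normalization. Over all 11481 genes these scalings called 751 lower and 270 higher (TPM), 725 and 504 (median) and 626 and 490 (quantile). In 58 of the 100 members both wild-type libraries lay below both vector libraries, against 44.9% of all genes, and in 28 both lay above, against 32.1%. The sides differed, with 57 of 89 below and 19 above on the short-arm side, and 1 of 11 below and 9 above on the long-arm side. The numbers called, among members and over all genes tested, also changed widely when any library was left out. That held for the Q311E libraries too, which take no direct part in this contrast but share its estimate of the spread. The median of all members then ran from -0.15 to -0.10.

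The 11 members called lower in the wild-type line are on the short-arm side, as are 89 of the 100 members, and nothing is read from their place. SNPH, which passed the filter through the vector libraries, had a log2 difference of -1.18. DNAAF9 fell by 0.84 ± 0.10 (SE; limma, adjusted p = 0.0136) and SMIM26, a small mitochondrial protein, by 0.83 ± 0.15 (adjusted p = 0.0275). SMIM26 had 12.7 and 14.3 FPKM in wild type and 23.4 and 26.0 in vector, and its Q311E values of 11.0 and 14.6 FPKM lay with those of wild type. LZTS3, SNRPB, FKBP1A and NAA20 fell by 0.76 to 0.43, with limma adjusted p-values from 0.0174 to 0.0402. AP5S1, a subunit of an adaptor complex of vesicle transport, RBCK1, RBBP9 and NRSN2 fell by 0.39 to 0.37, at adjusted p-values from 0.0322 to 0.0479 in the same fit.

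PLCB4, which passed the filter through the wild-type libraries, had a log2 difference of 1.01 between wild type and vector. ASXL1, a partner of the histone H2A deubiquitinase BAP1, rose by 0.47 ± 0.10 in wild type (SE; limma, adjusted p = 0.0405), with 10.8 and 10.2 FPKM in wild type and 7.13 and 7.43 in vector. HM13 rose by 0.31 ± 0.07 (limma, adjusted p = 0.0492). ASXL1 and HM13 are long-arm members, and 9 of the 11 long-arm members were above 0 in wild type against vector, with a median of 0.25. Their values in Q311E against vector have a median of 0.13, and the 2 comparisons share the vector libraries.

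Along the arm, the wild-type difference from vector was largest toward the chromosome's end. The run of C20orf96 to SLC52A3 had a median of -0.37 and that of FAM110A to NOP56 one of -0.37, while the run next to the gap stood at -0.01 and all 10 runs were below 0. The single break for this comparison fell after KIZ, a centrosomal protein, at 21.1 Mb by absolute deviations and after SHLD1, a DNA repair protein, at 5.75 Mb by least squares, with medians of -0.22 and -0.29 before it and 0.00 and -0.03 after it. The first long-arm run, HM13 to ASXL1, stood at 0.35.

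Beside the medians of other whole chromosomes, the short-arm members lay apart in the Q311E line. The medians of tested protein-coding genes on the other 22 chromosomes ran from -0.10 on chromosome 7 to 0.29 on chromosome 9 for Q311E against vector, where the short-arm members had -0.53. They ran from -0.03 on chromosome 16 to 0.12 on chromosome 6 for Q311E against wild type, where the short-arm members had -0.34. For wild type against vector they ran from -0.13 on chromosome 5 to 0.22 on chromosome 9, against -0.17 for the short-arm members. Taken whole, chromosome 20 had medians of -0.13 for Q311E against vector, -0.12 for Q311E against wild type and -0.05 for wild type against vector. A part of a chromosome chosen for its low values is thus set against whole chromosomes, and parts of the others were not compared. These are descriptions of lists of unequal size, and no test of the difference between chromosomes was made.

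**Figure D5:**
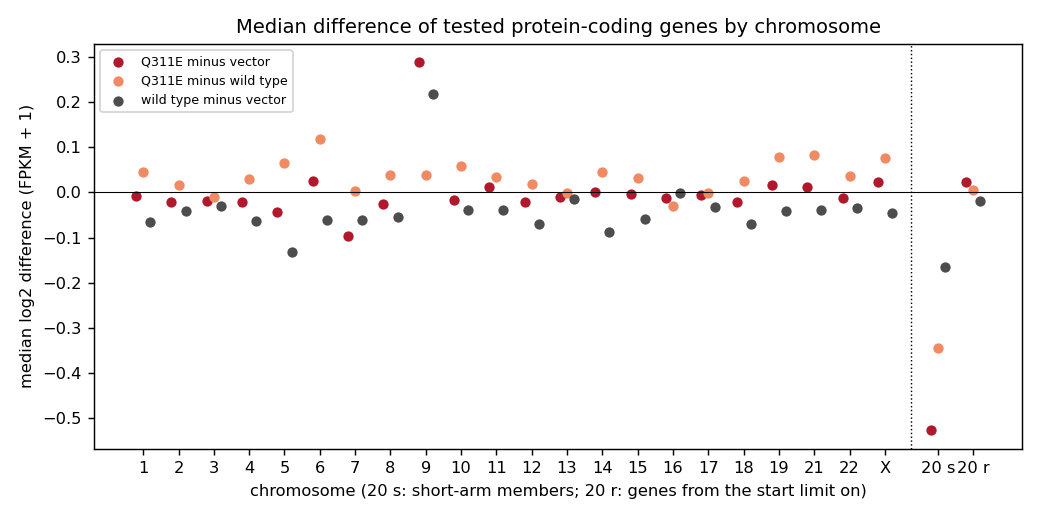
Median log2(FPKM + 1) difference of tested protein-coding genes on each chromosome other than 20 (horizontal axis), with the short-arm members (20 s) and the genes of chromosome 20 beyond 33 Mb (20 r) at the right, for the 3 comparisons. The short-arm medians of -0.53 and -0.34 for Q311E lie below the medians of all other chromosomes, each taken whole, which reach down to -0.10 and -0.03.

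Reads of some members cannot be assigned with certainty, because the use of strand in counting is not given in the sources used here. Of the 100 members, 63 overlap another annotated gene and 46 one on the opposite strand, 28 overlap another protein-coding gene, and 7 have named pseudogenes, among them FKBP1A and DSTN with 4 each. SNRPB, SIRPA, SNX5, NXT1 and MAPRE1 are the others with named pseudogenes.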

How the data were processed

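RNA sequencing was measured in 6 libraries of CAL27 lines. The authors deposited a table of FPKM values for human Ensembl gene IDs. The submitters' processing notes name CASAVA, and mm8 and mm9, which are mouse builds, without their role. The aligner, counter, annotation and strandedness are each not given in the sources used here. The labels' protocols name QIAGEN for the extraction and Illumina for the libraries.

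Positions and gene types came from GENCODE 29 on GRCh38, which held 30059 of the 30178 IDs. Low values fell on whole multiples of 1 read, which gave whole reads, within a tolerance of 0.001, for 30147 genes (99.9%), 22361 of them at the GENCODE 29 length and the rest at a fitted length. Over genes with a mean of at least 1 FPKM, log2(FPKM + 1) values of the 6 libraries were fitted together with limma 3.58.1 (R 4.3.3, variance prior with a trend, 3 residual degrees of freedom) and called by two-sided Benjamini-Hochberg adjusted p-values over 11481 genes. This scale understates changes of low genes. Other work used pandas 2.3.3, numpy 2.4.6 and matplotlib 3.10.9. The fit was tested on simulated data.

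The members and the role lists were chosen with earlier results of these data known. Of 92 genes in the role lists, 82 are members. Named genes are the 8 largest differences each way in Q311E against vector, the members called in wild type against vector, those next to the limits and the break, the 8 of highest level, the 5 that differ most between Q311E A and B, and up to 4 of highest level per role list. C20orf96, UBOX5, POLR3F, TRMT6, MCM8, MAVS, POFUT1, RBCK1, RBBP9 and NRSN2 were added after their values were seen. Some results are not reported here. Alternatives were another pseudocount, other filters and scalings, limma-voom on the recovered reads, a replicate block and leaving out each library. The medians of short-arm members under the alternatives were added after seeing the data.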

Additional observations from a re-analysis of the deposited data

How the results depend on the processing

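No median over all members or over the short-arm members changed its sign under the alternatives run. The wild type against vector median of the transcription factors, 0.12, did: it was -0.12 with the filter at a mean of 5 FPKM and -0.013 without wild type A. The pseudocount of 0.1 gave medians of all members of -0.56 (Q311E against vector) and -0.35 (Q311E against wild type), and of short-arm members of -0.59 and -0.41. Limma-voom on recovered reads gave -0.57 and -0.35, and -0.60 and -0.42 for short-arm members. For Q311E against wild type, a filter at a mean of 5 FPKM gave -0.44 (short arm -0.47; interquartile range 0.47), TPM scaling -0.38 (-0.43), median scaling -0.35 (-0.39) and quantile normalization -0.40 (-0.46). For wild type against vector they were -0.069 (short arm -0.12) with TPM scaling, -0.062 (-0.12) with median scaling and -0.059 (-0.10) with quantile normalization, and the filter at 5 FPKM gave -0.11 for short-arm members. TPM scaling widened the interquartile range for Q311E against vector to 0.51. The break for Q311E against vector moved to 25.6 Mb with the filter at 5 FPKM and to 31.6 Mb with least squares, and that for Q311E against wild type to 25.6 Mb with the filter.

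Leaving out 1 library at a time gave medians of all members from -0.52 to -0.42 (Q311E against vector), -0.33 to -0.30 (Q311E against wild type) and -0.15 to -0.10 (wild type against vector), and of short-arm members from -0.55 to -0.46, -0.39 to -0.34 and -0.18 to -0.15. Interquartile ranges ran from 0.36 to 0.48 and 0.50 to 0.67 for the Q311E comparisons. Members called lower numbered 0 to 71 for Q311E against vector, 0 to 60 for Q311E against wild type and 0 to 41 for wild type against vector, and called higher in the last 0 to 13. A group left with 1 library is assumed to vary like the others. Without a filter on the genes tested, 29 members were called lower in Q311E against wild type, where 1.53% of all genes were. In wild type against vector the same setting gave 1 lower and 0 higher, where 288 and 105 of 30178 genes were called. In that comparison TPM scaling gave 5 lower and 1 higher, quantile normalization 5 and 5, and median scaling 5 higher. Over all genes these scalings called 6.54%, 5.45% and 6.31% lower, in that order. The labels do not say that the letters A and B mark a shared culture or batch, and the letters were not taken to pair the libraries: the differences between A and B correlated across genes at 0.39 between Q311E and vector, -0.01 between Q311E and wild type and -0.03 between wild type and vector. With a replicate block 53 members were called lower in Q311E against vector and 13 in wild type against vector, where 8.71% and 8.06% of all genes were. With 2 libraries a line, calls depend on the spread pooled over the lines, and members near 1 FPKM rest on few reads. The cause of these moves was not tested.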

Other observations

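Low-level genes of the region outside the members included some with large differences between lines. FLRT3, an adhesion protein, had 0.398 and 2.88 FPKM in the Q311E libraries and 0.617 and 0.596 FPKM in the wild-type libraries, and was listed at 0 in both vector libraries. RSPO4, an enhancer of Wnt signalling, had 0.136 and 0.0503 FPKM in the Q311E libraries and 0.0477 and 0.034 FPKM in the wild-type libraries, against 1.17 and 1.37 FPKM in the vector libraries. Both genes were named after their values were seen. CST4, a salivary cystatin, was listed at 1.69 FPKM in Q311E A and at 0 in the other 5 libraries. Among the tested genes that are not protein-coding, SNORD17, a small nucleolar RNA, had 12.1 and 4.29 FPKM in the Q311E libraries, 28.9 and 25.5 FPKM in the wild-type libraries and 24.1 and 19.0 FPKM in the vector libraries. The values of these genes carry no test here.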
